A study of Homo sapiens with 24 samples.

Results

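The transcripts described here are those of 34 human genes known as targets of the transcription factor p53 in cell cycle arrest, DNA repair, metabolism and feedback. They were chosen by gene name from a fixed list that leaves out the BCL2 family and the death receptors, and all 34 were found, with 1 row each, among the 60504 rows of the expression table. RNA had been sequenced from 3 cancer cell lines collected 48 hours after transfection with small interfering RNA against GCDH (siGCDH) or with a control siRNA (siControl). The product of GCDH, glutaryl-CoA dehydrogenase, breaks down lysine and tryptophan in mitochondria, and the series asks how melanoma cells depend on it. The groups were A375 melanoma cells in batch 1 with siGCDH and with siControl, A375 cells in batch 2 with siGCDH and with siControl, SK-Hep1 cells labelled as liver with siGCDH and with siControl, and cells labelled SKBR3, breast, with siGCDH and with siControl. Each of the 8 groups held 3 libraries from wells seeded in triplicate, so p-values measure only how wells differ, and that spread may be technical. All groups, controls included, were transfected. Batch 1 was made with a kit that reads only the 3′ end of polyadenylated RNA, whereas the other 18 libraries came from a poly(A) kit that reads whole transcripts, so levels were compared between lines only within the whole-transcript kit.

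The protein p53 is a transcription factor that is kept scarce by the ubiquitin ligase MDM2 and accumulates when cells sense DNA damage, ribosomal stress, nutrient stress or oncogene activity. It binds a response element made of repeated short sites near its targets, and their products stop the cell cycle, repair DNA, alter metabolism, start cell death or shut p53 itself off again. The separation from cell death in the choice of genes is not strict, because AEN, CDIP1 and EDA2R are also known from cell death and TNFRSF10C is a decoy member of a death receptor family.

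Promoters of the genes were searched for the p53 response element, the sequence to which the protein binds. Genes are often recognised as p53 targets through such elements, so more matches than in other genes are largely built into the choice of the 34 and were not read as a result. RefSeq windows (GRCh38.p14) that run from 250 bases before to 50 bases after the start were available for 29 of the 34 genes. The consensus was searched as 2 decamers of 10 bases without a spacer, with the C and G cores kept intact. It reads the same on both strands. With up to 3 mismatches it matched in 6 of the 29 windows, against 1.37% of 27305 gene windows searched in the same way. With up to 4 mismatches 8 of 29 matched, against 4.92%. The limit of 3 mismatches was chosen after the matches were seen. A match is a resemblance of letters and does not show binding. The 6 matches are printed 5′ to 3′ on the strand of the gene, with 5 bases on each side in lower case and, within the element, capitals for bases that match the consensus and lower case for those that do not.
DDB2: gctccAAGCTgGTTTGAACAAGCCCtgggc
AEN: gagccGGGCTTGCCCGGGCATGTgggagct
MDM2: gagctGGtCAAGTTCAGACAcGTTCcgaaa
FDXR: ggcccGGGCAgGagCGGGCTTGCCCtgcgg
RPS27L: aggagGGcCTAGagCAGACAAGCCCgcccc
SESN1: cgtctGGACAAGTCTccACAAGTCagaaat
The element of DDB2 lay at chr11:47214969-47214988 on the plus strand, started 5 bases before the RefSeq start and had 1 mismatch. That of AEN lay at chr15:88621306-88621325, plus strand, with 2 mismatches, and that of MDM2 at chr12:68808923-68808942, plus strand, with 2 mismatches. The gene positions printed further on come from another annotation, GENCODE 29, in which DDB2 and MDM2 begin before these elements. FDXR (chr17:74872996-74873015), RPS27L (chr15:63157527-63157546) and SESN1 (chr6:109009018-109009037), all on the minus strand, had 3 mismatches each. Of these 6 genes, all 6 were called higher with siGCDH in SK-Hep1, where 25 of the 34 genes were, and 5, all but AEN, in A375 batch 2. In the libraries labelled SKBR3 4 were called higher, not AEN or SESN1, and only DDB2 with the libraries scaled to a common median. In batch 1 RPS27L alone was called. Of all genes, 37.3% were called higher in SK-Hep1, 17.9% in A375 batch 2, 47.3% in the libraries labelled SKBR3 (29.4% scaled) and 1.18% in batch 1. Of the p53 target genes tested, 73.5%, 65.6%, 62.5% and 16.7% were, in the same order. Nothing is therefore read from the calls of the genes with a match.

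Features of the whole series that touch these genes were few. GCDH (ENSG00000105607, chromosome 19, 12891026 to 12914207, plus strand, hg38) had 3.91, 3.41 and 3.83 TPM in siGCDH libraries, against 20.7, 22.7 and 19.3 TPM in siControl libraries in A375 batch 2 (log2 difference -2.21, SE 0.1, adjusted p = 1.41e-05, by limma on log2(TPM + 1), Benjamini-Hochberg adjusted over all genes). Its log2 difference was -1.48 in SK-Hep1 and -1.78 in the libraries labelled SKBR3, both called. In A375 batch 1 it was -1.42 and did not pass (adjusted p = 0.118), although all 3 siGCDH libraries (0.31 to 1.5 TPM) lay below all 3 siControl libraries (1.77 to 6.69 TPM). TPM are corrected for transcript length and hold no read totals, so the depth is unknown. Between 12210 and 12658 genes reached 1 TPM in batch 1 libraries, 17112 to 17251 in siGCDH libraries labelled SKBR3, and 15140 to 15181 in their controls. In batch 1, 4 chromosome 21 rows from a ribosomal RNA region took 33.0% ± 1.65 of all TPM with siGCDH and 17.1% ± 2.07 with siControl (SD, n = 3 each), against less than 0.1% elsewhere. Both A375 batches held the melanoma marker SOX10, at 497 to 549 TPM with siGCDH and 440 to 466 TPM with siControl in batch 2, although TYR (0 to 0.29 TPM) and MLANA (0 to 0.73 TPM), genes of pigment cells, were at or near 0 in both batches. SK-Hep1 had keratins but little of the liver markers, whose summed level was 33.7 to 36.2 TPM with siGCDH and 8.40 to 10.9 TPM with siControl. Of these markers only SERPINA1 averaged 1 TPM or more there, and it rose (log2 difference 1.77). ALB, APOA1, TTR and HNF4A did not. The libraries labelled SKBR3 did not show the ERBB2 level for which that line is known, at 25.5 ± 2.23 TPM in controls against 46.4 ± 5.12 TPM in SK-Hep1 controls (SD, n = 3 each), and keratin KRT19 was between 0 and 0.68 TPM, so the name is used here only as the label. The part of these library features in the results was not tested.

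Most of the tested genes were called higher after GCDH knockdown in A375 batch 2 and SK-Hep1. In the libraries labelled SKBR3 most were called higher only before scaling to a common median. With scaling, 11 were higher there and 6 lower, where 29.4% and 25.6% of all genes were. In A375 batch 2, 21 of 32 tested genes rose, 1 fell and 10 did not pass, where 17.9% of all 15185 tested genes were called higher and 15.7% lower. In SK-Hep1, 25 of 34 rose, 1 fell and 8 did not pass, where 37.3% of 14557 genes were called higher and 18.2% lower. SPATA18 reached the filter on low values there only through its siGCDH libraries, and without it 24 of 33 rose. In the libraries labelled SKBR3, 20 of 32 rose, 2 fell and 10 did not pass, where 47.3% of 16494 genes were called higher and 14.7% lower. In A375 batch 1, 5 of 30 rose, none fell and 25 did not pass, where 1.18% of 12868 genes were called higher and 6.73% lower. In bulk RNA, more cells in a state and more RNA per cell cannot be told apart. A gene was tested where its mean over the 6 libraries reached 1 TPM, and called at an adjusted p under 0.05.

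**Figure D1:**
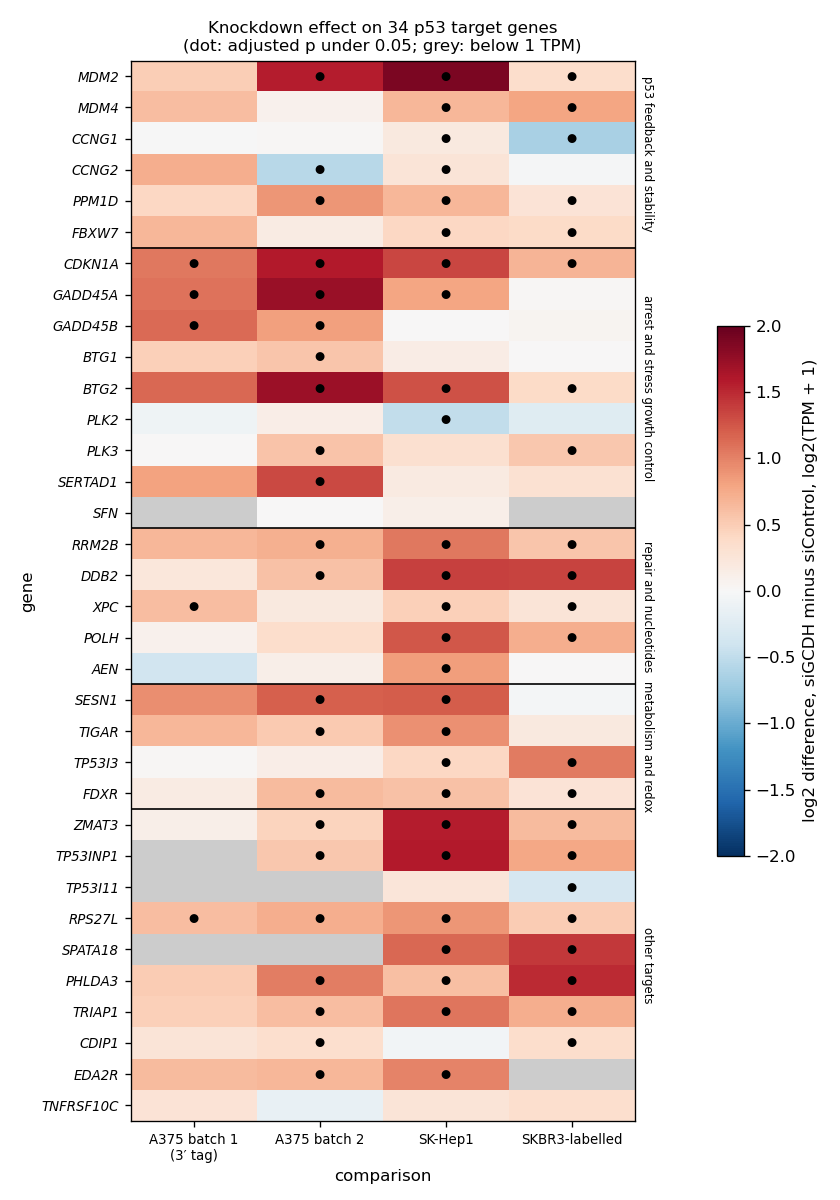
Log2 difference (siGCDH over siControl, on the log2(TPM + 1) scale) for each of the 34 genes in the 4 knockdown comparisons, grouped by role, with called genes marked. In A375 batch 2 called values run from -0.55 for CCNG2 to 1.72 for GADD45A, and in SK-Hep1 from -0.49 for PLK2 to 1.89 for MDM2.

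The median of the tested genes on this log2 scale was 0.56 in A375 batch 2, against 0.02 over all genes. It was 0.67 in SK-Hep1, against 0.18 over all genes, and 0.50 in A375 batch 1, against -0.20. The distance was least in the libraries labelled SKBR3, with a median of 0.35 against 0.29 over all genes. Because the all-gene medians lay away from 0 in 3 of the 4 comparisons, each comparison was also run after the libraries were scaled to a common median. Scaled in this way, the libraries labelled SKBR3 had 11 genes higher and 6 lower (29.4% and 25.6% of all genes), SK-Hep1 22 and 1 (28.3% and 23.1%), A375 batch 2 21 and 1 (17.7% and 16.2%), and A375 batch 1 9 and 0 (1.59% and 2.28%). Over all genes, the share of calls that were higher came to 53.4% with scaling and 76.3% without in the libraries labelled SKBR3, 55.0% and 67.3% in SK-Hep1, 52.2% and 53.2% in A375 batch 2, and 41.2% and 14.9% in A375 batch 1. Without the mean-variance trend in limma, none of the 5 calls of batch 1 passed.

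**Figure D2:**
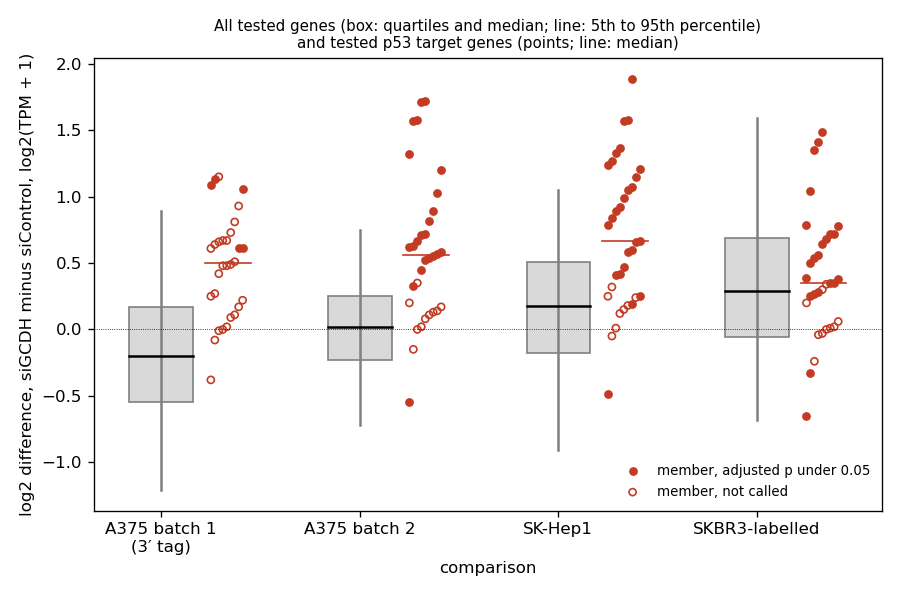
Log2 differences of the p53 target genes beside the spread of all tested genes (quantiles) in each knockdown comparison. The genes sit well above the all-gene median in A375 batch 2 (0.56 against 0.02) and SK-Hep1 (0.67 against 0.18), and near it in the libraries labelled SKBR3 (0.35 against 0.29).

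All 6 feedback regulators of p53 rose in SK-Hep1, while 2 rose and 1 fell in A375 batch 2. In the libraries labelled SKBR3 4 rose and 1 fell, and none passed in A375 batch 1. Called higher over all genes were 37.3%, 17.9%, 47.3% and 1.18%, in that order. With scaling, CCNG1, CCNG2 and FBXW7 lost the call in SK-Hep1, and MDM2, PPM1D and FBXW7 in the libraries labelled SKBR3. MDM2 (ENSG00000135679, chromosome 12, 68808176 to 68850686, plus strand), the ubiquitin ligase that degrades p53, had 224, 222 and 206 TPM in siGCDH libraries, against 73.99, 73.1 and 69.9 TPM in siControl libraries in A375 batch 2 (log2 difference 1.57, SE 0.05, adjusted p = 2.35e-06). In SK-Hep1 it had 213, 227 and 246 TPM with siGCDH and 58.5, 55.9 and 68.6 TPM with siControl (log2 difference 1.89, SE 0.087, adjusted p = 2.85e-06), the greatest difference among the 34 genes in that line. The groups lay far apart in both lines. MDM2 had 61.3, 47 and 52.02 TPM with siGCDH and 42.6, 41.8 and 40.2 TPM with siControl in the libraries labelled SKBR3 (log2 difference 0.35, SE 0.095, adjusted p = 0.0142), a call lost with median scaling. A375 batch 1 gave 271, 291 and 287 TPM with siGCDH and 167, 237 and 204 TPM with siControl, which did not pass (log2 difference 0.49, SE 0.14, adjusted p = 0.0701) although its siGCDH libraries all lay above its controls. With scaling, MDM2 was called higher there too. PPM1D, the phosphatase WIP1 that switches off p53 and its activating kinases, had 33.4, 33.7 and 34.7 TPM in siGCDH libraries, against 18.5, 18.1 and 17.1 TPM in siControl libraries in A375 batch 2 (log2 difference 0.89, SE 0.065, adjusted p = 8.24e-05). It rose by 0.67 in SK-Hep1 and by 0.27 in the libraries labelled SKBR3, the second of these lost with scaling.

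MDM4, a relative of MDM2 that binds and inhibits p53, rose in SK-Hep1 (6.56 to 7.76 TPM with siGCDH and 3.06 to 5.45 TPM with siControl) and in the libraries labelled SKBR3 (7.88 to 10.5 TPM with siGCDH and 4.13 to 5.9 TPM with siControl), whereas in A375 batch 2 its groups overlapped (log2 difference 0.08, SE 0.27, adjusted p = 0.844). FBXW7, the substrate receptor of a ubiquitin ligase for cyclin E and MYC, rose by 0.41 in SK-Hep1 and by 0.39 in the libraries labelled SKBR3. Both FBXW7 calls were lost with scaling and without single libraries. The cyclin G genes were the members called in opposite directions. CCNG1, which brings the phosphatase PP2A to MDM2, had 154, 167 and 149 TPM in siGCDH libraries, against 235, 264 and 239.7 TPM in siControl libraries in the libraries labelled SKBR3 (log2 difference -0.65, SE 0.061, adjusted p = 0.000104). In SK-Hep1 it had 225, 243 and 239 TPM with siGCDH and 215, 190.1 and 213 TPM with siControl (log2 difference 0.19, SE 0.059, adjusted p = 0.024), a rise lost with scaling, without the trend and when any 1 of 3 libraries was left out. All of its SKBR3-labelled siGCDH libraries lay below the controls, and its A375 groups overlapped in both batches. CCNG2, an atypical cyclin also known as a target of FOXO factors, had 11.95, 11.5 and 12.7 TPM in siGCDH libraries, against 17.2, 17.4 and 19.8 TPM in siControl libraries in A375 batch 2 (log2 difference -0.55, SE 0.088, adjusted p = 0.00297). In SK-Hep1 it had 45.2, 46.3 and 50.7 TPM with siGCDH and 41.7, 37.1 and 39.96 TPM with siControl (log2 difference 0.25, SE 0.072, adjusted p = 0.0182), a rise lost with scaling. CCNG2 was thus lower in every siGCDH library of A375 batch 2 and higher in every siGCDH library of SK-Hep1.

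Of 9 genes of growth arrest, 7 rose in A375 batch 2 and 3 of the 8 tested rose in batch 1. In SK-Hep1 3 rose and 1 fell, and in the libraries labelled SKBR3 3 of 8 tested rose. The shares of all genes called higher were 17.9%, 1.18%, 37.3% and 47.3%, in the same order. In SK-Hep1 and in the libraries labelled SKBR3 the arrest genes did not exceed that share. CDKN1A (ENSG00000124762, chromosome 6, 36676460 to 36687339, plus strand), the cyclin-dependent kinase inhibitor p21 and the best known arrest target of p53, had 474, 453 and 478 TPM in siGCDH libraries, against 159, 159 and 151 TPM in siControl libraries in A375 batch 2 (log2 difference 1.58, SE 0.04, adjusted p = 1.01e-06). Batch 1 gave 145, 146 and 140.1 TPM with siGCDH and 61.6, 67.8 and 77.1 TPM with siControl (log2 difference 1.06, SE 0.12, adjusted p = 0.00505). SK-Hep1 gave 221, 217 and 218 TPM with siGCDH and 84.6, 88.1 and 86.9 TPM with siControl (log2 difference 1.33, SE 0.042, adjusted p = 7.39e-07), the smallest adjusted p of the 34 genes in that line. The libraries labelled SKBR3 had far less of it, 30.1, 30.4 and 29.9 TPM with siGCDH and 19.6, 16.6 and 19.4 TPM with siControl (log2 difference 0.68, SE 0.079, adjusted p = 0.000277). CDKN1A was therefore higher in every siGCDH library of all 4 comparisons, although the lowest level after knockdown (29.9 TPM, labelled SKBR3) was below every control library of A375 batch 2 and SK-Hep1.

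**Figure D3:**
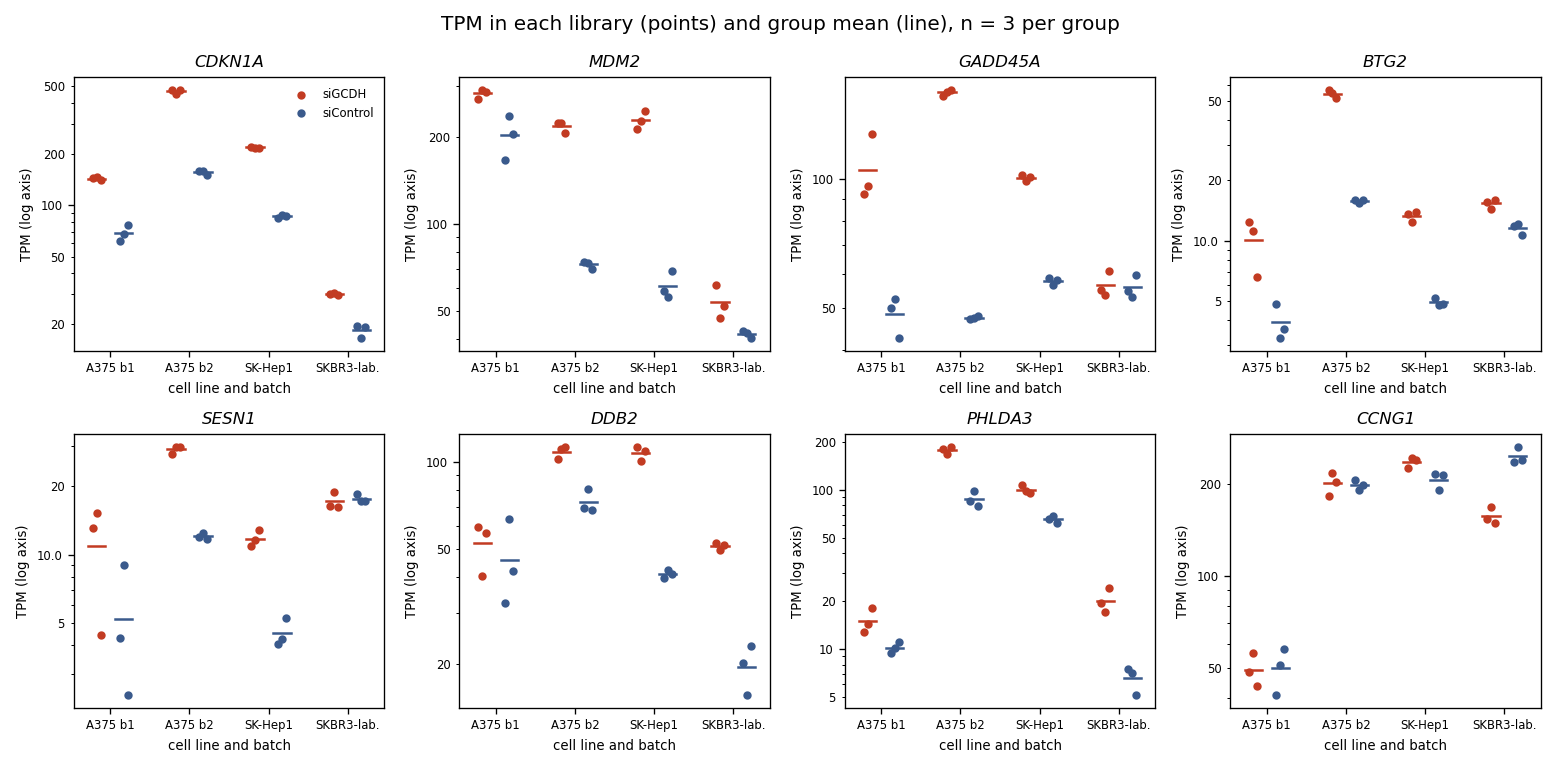
TPM in each library (points, log axis) and group mean (line, n = 3 per group) of 8 genes, siGCDH left of siControl for each line and batch. CDKN1A is separated in all 4 comparisons, GADD45A and SESN1 overlap in the libraries labelled SKBR3, and CCNG1 is lower with siGCDH there.

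GADD45A (ENSG00000116717, chromosome 1, 67685061 to 67688338, plus strand), a stress protein that binds PCNA and inhibits CDK1, had 156, 159 and 161 TPM in siGCDH libraries, against 47.2, 47.6 and 47.9 TPM in siControl libraries in A375 batch 2 (log2 difference 1.72, SE 0.042, adjusted p = 1.01e-06), the greatest rise of the 34 genes in that comparison. It had 92.2, 96.1 and 127 TPM with siGCDH and 50.1, 52.5 and 42.6 TPM with siControl in batch 1 (log2 difference 1.09, SE 0.17, adjusted p = 0.0125) and 102, 98.9 and 101 TPM with siGCDH and 58.9, 56.7 and 58.2 TPM with siControl in SK-Hep1 (log2 difference 0.79, SE 0.048, adjusted p = 1.03e-05). Groups overlapped in the libraries labelled SKBR3, with 55.3, 53.8 and 60.96 TPM with siGCDH and 54.9, 53.3 and 59.8 TPM with siControl (log2 difference 0.02, SE 0.069, adjusted p = 0.838). The order of the lines for GADD45A was thus A375, then SK-Hep1, then the libraries labelled SKBR3, where median scaling gave -0.21 (adjusted p = 0.0283). Its relative GADD45B had 21.6, 19.2 and 18.6 TPM in siGCDH libraries, against 10.8, 10.9 and 10.5 TPM in siControl libraries in A375 batch 2 (log2 difference 0.82, SE 0.085, adjusted p = 0.000426). Batch 1 gave 10.7, 12.2 and 11.3 TPM with siGCDH and 2.98, 5.47 and 6.09 TPM with siControl (log2 difference 1.13, SE 0.28, adjusted p = 0.0483), a call lost without any 1 of its libraries. Outside A375, GADD45B did not pass, at 29.7 to 33.5 TPM with siGCDH and 30.5 to 33.6 TPM with siControl in SK-Hep1 and 9.3 to 11.2 TPM with siGCDH and 8.47 to 10.9 TPM with siControl in the libraries labelled SKBR3.

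BTG1 and BTG2 encode antiproliferative proteins that speed the loss of poly(A) tails. BTG2 had 56.7, 54.3 and 51.5 TPM in siGCDH libraries, against 16.1, 15.5 and 15.97 TPM in siControl libraries in A375 batch 2 (log2 difference 1.71, SE 0.064, adjusted p = 5.2e-06) and 13.5, 12.4 and 13.9 TPM with siGCDH and 5.17, 4.79 and 4.81 TPM with siControl in SK-Hep1 (log2 difference 1.27, SE 0.097, adjusted p = 3.04e-05). In batch 1 it had 12.4, 11.2 and 6.6 TPM with siGCDH and 4.84, 3.26 and 3.62 TPM with siControl, without overlap but short of the threshold (log2 difference 1.15, SE 0.29, adjusted p = 0.0569). The libraries labelled SKBR3 gave a smaller rise of 0.38, lost with scaling. BTG1 had 144, 149.9 and 164 TPM in siGCDH libraries, against 97.1, 108 and 106 TPM in siControl libraries in A375 batch 2 (log2 difference 0.55, SE 0.064, adjusted p = 0.000732) and 70.6, 69.1 and 78.6 TPM with siGCDH and 50.3, 49.7 and 55.4 TPM with siControl in batch 1, which did not pass (log2 difference 0.48, SE 0.13, adjusted p = 0.0659). Its groups overlapped in SK-Hep1 (26.99 to 34.3 TPM with siGCDH and 25.9 to 30.1 TPM with siControl) and in the libraries labelled SKBR3 (24.5 to 30.9 TPM with siGCDH and 26.95 to 27.7 TPM with siControl). SERTAD1, a CDK4-binding cofactor of E2F transcription, had 26.6, 29.4 and 28.04 TPM in siGCDH libraries, against 11.9, 9.6 and 10.4 TPM in siControl libraries in A375 batch 2 (log2 difference 1.32, SE 0.095, adjusted p = 7.98e-05). Batch 1 gave 12.1, 13.1 and 11.1 TPM with siGCDH and 6.58, 5.88 and 6.95 TPM with siControl, again apart but not called (log2 difference 0.81, SE 0.2, adjusted p = 0.0509). In SK-Hep1 and in the libraries labelled SKBR3 its differences of 0.18 and 0.30 did not pass.

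PLK2 and PLK3 are polo-like kinases induced by stress. PLK2 fell in SK-Hep1, where it was most abundant, with 526, 581 and 584 TPM in siGCDH libraries, against 770.5, 783 and 821 TPM in siControl libraries (log2 difference -0.49, SE 0.05, adjusted p = 0.000121). Batch 2 of A375 had 105, 95.6 and 104 TPM with siGCDH and 91.3, 96.7 and 88.8 TPM with siControl and did not pass (log2 difference 0.13, SE 0.056, adjusted p = 0.106). PLK3 rose by 0.57 in A375 batch 2 (19.2 to 22.1 TPM with siGCDH and 13.8 to 13.8 TPM with siControl) and by 0.54 in the libraries labelled SKBR3 (4.38 to 5.69 TPM with siGCDH and 2.36 to 3.72 TPM with siControl), the second lost with scaling, with no filter, with the replicate block and without any 1 of 3 libraries. SFN, the 14-3-3 sigma protein that holds CDK1 and cyclin B in the cytoplasm, was abundant only in SK-Hep1, with 74.9, 68.7 and 66.8 TPM with siGCDH and 65.4, 68.1 and 59.3 TPM with siControl, and did not pass there (log2 difference 0.12, SE 0.072, adjusted p = 0.175). It stayed below 2 TPM in every other library and was not tested in A375 batch 1 or in the libraries labelled SKBR3.

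All 5 genes grouped under repair and nucleotides rose in SK-Hep1 and 4 rose in the libraries labelled SKBR3. In A375 batch 2 2 rose, and in batch 1 1. Over all genes, 37.3%, 47.3%, 17.9% and 1.18% were called higher, in the same order. AEN, also known from cell death, is counted among the 5 and was called only in SK-Hep1. DDB2 (ENSG00000134574, chromosome 11, 47214465 to 47239240, plus strand), which recognises ultraviolet damage and whose promoter match is printed above, had 113, 100.2 and 109 TPM in siGCDH libraries, against 39.8, 42.2 and 40.9 TPM in siControl libraries in SK-Hep1 (log2 difference 1.37, SE 0.062, adjusted p = 2.64e-06). The libraries labelled SKBR3 had 52.5, 49.5 and 51.5 TPM with siGCDH and 20.2, 15.7 and 23.1 TPM with siControl (log2 difference 1.35, SE 0.13, adjusted p = 0.000104). The rise was smaller in A375 batch 2, with 102, 110.5 and 112 TPM with siGCDH and 69.1, 80.3 and 67.98 TPM with siControl (log2 difference 0.58, SE 0.074, adjusted p = 0.00115). DDB2 was separated in all 3 whole-transcript comparisons, and in batch 1 its groups overlapped (40.4 to 59.7 TPM with siGCDH and 32.6 to 63.2 TPM with siControl). POLH, the translesion DNA polymerase eta, had 30.7, 37.5 and 34.2 TPM in siGCDH libraries, against 16.8, 12.7 and 12.5 TPM in siControl libraries in SK-Hep1 (log2 difference 1.24, SE 0.13, adjusted p = 0.000124) and 23.4, 22.95 and 29 TPM with siGCDH and 13.2, 17.7 and 13.7 TPM with siControl in the libraries labelled SKBR3 (log2 difference 0.72, SE 0.13, adjusted p = 0.00261). A375 batch 2 gave 16.5, 11.5 and 17.2 TPM with siGCDH and 13.3, 10.6 and 10.6 TPM with siControl with overlapping groups (log2 difference 0.35, SE 0.16, adjusted p = 0.14).

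RRM2B, the p53-inducible subunit of ribonucleotide reductase, rose in all 3 whole-transcript comparisons. It had 20.8, 16.9 and 16.1 TPM in siGCDH libraries, against 12.04, 11.4 and 11.9 TPM in siControl libraries in the libraries labelled SKBR3 (log2 difference 0.56, SE 0.11, adjusted p = 0.00273). SK-Hep1 had 47.8, 53.98 and 46.1 TPM with siGCDH and 20.8, 22.9 and 26.2 TPM with siControl (log2 difference 1.05, SE 0.099, adjusted p = 8.25e-05), and A375 batch 2 47.6, 43.7 and 55.2 TPM with siGCDH and 28.8, 29.2 and 30 TPM with siControl (log2 difference 0.71, SE 0.088, adjusted p = 0.000961). XPC, the damage sensor of global genome nucleotide excision repair, was the repair gene called in batch 1, with 52.1, 60.7 and 51.3 TPM in siGCDH libraries, against 36.6, 37.04 and 32.5 TPM in siControl libraries (log2 difference 0.61, SE 0.15, adjusted p = 0.0451), a call lost without any 1 of its libraries. It rose by 0.47 in SK-Hep1 and by 0.25 in the libraries labelled SKBR3, the second lost with scaling (0.02) and without either of 2 libraries, but in A375 batch 2 its groups overlapped (42.7 to 58.2 TPM with siGCDH and 40.3 to 50.5 TPM with siControl). AEN, a nuclease, had 48.7, 47.7 and 53.9 TPM in siGCDH libraries, against 28.8, 28.5 and 25.5 TPM in siControl libraries in SK-Hep1 (log2 difference 0.84, SE 0.077, adjusted p = 7.46e-05). AEN did not pass in A375 batch 2 (46.1 to 49.8 TPM with siGCDH and 43.2 to 45.9 TPM with siControl) or in the libraries labelled SKBR3 (27.6 to 29.4 TPM with siGCDH and 28.5 to 28.97 TPM with siControl). In batch 1 its siGCDH libraries lay below the controls without a call (log2 difference -0.38, SE 0.19, adjusted p = 0.256).

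Of 4 metabolic targets, 4 rose in SK-Hep1, 3 in A375 batch 2, 2 in the libraries labelled SKBR3 and none in batch 1. Beside these stand 37.3%, 17.9%, 47.3% and 1.18% of all genes called higher, in the same order. SESN1, sestrin 1, which restrains the growth kinase mTORC1, had 27.9, 29.96 and 29.7 TPM in siGCDH libraries, against 12.02, 12.5 and 11.8 TPM in siControl libraries in A375 batch 2 (log2 difference 1.20, SE 0.071, adjusted p = 3.55e-05). SK-Hep1 had 10.9, 11.6 and 12.8 TPM with siGCDH and 4.05, 4.25 and 5.26 TPM with siControl (log2 difference 1.21, SE 0.12, adjusted p = 0.000116). SESN1 had 16.4, 18.95 and 16.3 TPM with siGCDH and 18.5, 17.3 and 17.2 TPM with siControl in the libraries labelled SKBR3 (log2 difference -0.04, SE 0.083, adjusted p = 0.711), so the groups overlapped there while they were far apart in the other lines. TP53I3, a quinone oxidoreductase, had its greatest difference there. It had 14.6, 16.1 and 13.3 TPM in siGCDH libraries, against 7.65, 6.26 and 5.91 TPM in siControl libraries in the libraries labelled SKBR3 (log2 difference 1.04, SE 0.12, adjusted p = 0.000253) and 66.3, 63.5 and 62.7 TPM with siGCDH and 50.5, 43.4 and 50 TPM with siControl in SK-Hep1 (log2 difference 0.42, SE 0.072, adjusted p = 0.00182). A375 batch 2 had 53.9, 52.04 and 57.1 TPM with siGCDH and 46.4, 49.2 and 52.6 TPM with siControl and did not pass (log2 difference 0.14, SE 0.067, adjusted p = 0.159). TIGAR, which lowers fructose-2,6-bisphosphate and thereby glycolysis, rose by 0.92 in SK-Hep1 (51.5 to 61.1 TPM with siGCDH and 26.03 to 32.6 TPM with siControl) and by 0.52 in A375 batch 2 (55.1 to 61.9 TPM with siGCDH and 35.2 to 42.8 TPM with siControl). FDXR, the mitochondrial ferredoxin reductase, rose by 0.63 in A375 batch 2 (25.96 to 27.1 TPM with siGCDH and 15.1 to 18.3 TPM with siControl), by 0.58 in SK-Hep1 (39.7 to 40.95 TPM with siGCDH and 25.5 to 28.1 TPM with siControl) and by 0.28 in the libraries labelled SKBR3, the third lost with scaling.

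Of the 10 genes with other roles, 7 of 8 tested rose in A375 batch 2 and 7 of 10 in SK-Hep1. In the libraries labelled SKBR3 7 of 9 tested rose, and in batch 1 1 of 7 tested. Among all genes the shares called higher were 17.9%, 37.3%, 47.3% and 1.18%, in that order. RPS27L, a close copy of the ribosomal protein RPS27 known to bind MDM2, was called in all 4 comparisons, as only CDKN1A was besides. It had 537, 594 and 579 TPM in siGCDH libraries, against 341, 343 and 354 TPM in siControl libraries in A375 batch 2 (log2 difference 0.72, SE 0.043, adjusted p = 4.05e-05) and 868, 753 and 825 TPM with siGCDH and 531, 539.6 and 523 TPM with siControl in batch 1 (log2 difference 0.61, SE 0.079, adjusted p = 0.00628). SK-Hep1 had 864, 799 and 797 TPM with siGCDH and 421, 444 and 462 TPM with siControl (log2 difference 0.89, SE 0.049, adjusted p = 6.44e-06). Its level was lower in the libraries labelled SKBR3, 82.7, 84.1 and 71.1 TPM with siGCDH and 47.2, 59.96 and 60.6 TPM with siControl (log2 difference 0.50, SE 0.11, adjusted p = 0.00561), and the call was lost with scaling. Reads shared with near-identical copies are divided by an estimate in these values, so RPS27L is less certain than the single-copy genes.

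PHLDA3, which competes with the kinase AKT for membrane lipids, had 19.6, 16.98 and 24.04 TPM in siGCDH libraries, against 7.53, 7.04 and 5.13 TPM in siControl libraries in the libraries labelled SKBR3 (log2 difference 1.49, SE 0.17, adjusted p = 0.000222). A375 batch 2 had 182, 169 and 187 TPM with siGCDH and 85.5, 97.7 and 79.3 TPM with siControl (log2 difference 1.03, SE 0.08, adjusted p = 0.000115), and SK-Hep1 107, 98.01 and 95.5 TPM with siGCDH and 66.1, 68.8 and 62.2 TPM with siControl (log2 difference 0.60, SE 0.065, adjusted p = 0.000157). All 3 comparisons were without overlap. TRIAP1, a small mitochondrial protein of lipid transfer, had 103, 100.3 and 96.4 TPM in siGCDH libraries, against 56.1, 61.7 and 62.3 TPM in siControl libraries in the libraries labelled SKBR3 (log2 difference 0.72, SE 0.057, adjusted p = 4.42e-05), the smallest adjusted p among the 34 genes there. SK-Hep1 had 108, 98.3 and 103 TPM with siGCDH and 48.7, 47.6 and 49.6 TPM with siControl (log2 difference 1.07, SE 0.056, adjusted p = 4.96e-06), and A375 batch 2 92.4, 95.3 and 95.5 TPM with siGCDH and 64.4, 61.7 and 57.2 TPM with siControl (log2 difference 0.62, SE 0.057, adjusted p = 0.000241). In batch 1 TRIAP1 had 71.6, 77.5 and 84.3 TPM with siGCDH and 58.97, 51.6 and 55.95 TPM with siControl and did not pass (log2 difference 0.48, SE 0.13, adjusted p = 0.0701).

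ZMAT3, a zinc finger protein that binds RNA and alters splicing, and TP53INP1, a stress protein of autophagy, were the genes that rose most in SK-Hep1 after MDM2. ZMAT3 had 17.6, 19.01 and 20.8 TPM in siGCDH libraries, against 5.91, 5.58 and 5.78 TPM in siControl libraries in SK-Hep1 (log2 difference 1.57, SE 0.094, adjusted p = 9.32e-06). TP53INP1 had 19.1, 21.97 and 23.2 TPM in siGCDH libraries, against 6.3, 6.05 and 7.08 TPM in siControl libraries there (log2 difference 1.58, SE 0.1, adjusted p = 1.54e-05). Both rose less in A375 batch 2, ZMAT3 by 0.45 (8.86 to 10.6 TPM with siGCDH and 6.45 to 7.22 TPM with siControl) and TP53INP1 by 0.54 (3 to 3.36 TPM with siGCDH and 1.66 to 2.14 TPM with siControl). The TP53INP1 call in A375 batch 2 was lost without any 1 library, and the ZMAT3 call without any 1 of 3. They rose by 0.64 and 0.78 in the libraries labelled SKBR3, where control levels were under 3 TPM.

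SPATA18, a protein of mitochondrial quality control also named Mieap, is listed at 0 TPM in all 12 A375 libraries. It had 10.5, 8.86 and 11.3 TPM in siGCDH libraries, against 3.28, 2.71 and 3.62 TPM in siControl libraries in the libraries labelled SKBR3 (log2 difference 1.41, SE 0.14, adjusted p = 0.000112). In SK-Hep1 it had 2.55, 2.7 and 3.26 TPM with siGCDH and 0.55, 0.98 and 0.67 TPM with siControl (log2 difference 1.15, SE 0.2, adjusted p = 0.0017), and it reached the 1 TPM needed for a test there only through its siGCDH libraries. TP53I11 fell in the libraries labelled SKBR3, with 25.5, 27.8 and 27.4 TPM in siGCDH libraries, against 35.2, 32.96 and 34.2 TPM in siControl libraries (log2 difference -0.33, SE 0.063, adjusted p = 0.00282), and was near or below 2 TPM in the other lines. CDIP1 rose by 0.33 in A375 batch 2, a call lost without either of 2 libraries, and by 0.35 in the libraries labelled SKBR3, a call lost with scaling. It had 13.9 to 15.1 TPM with siGCDH and 13.8 to 15.6 TPM with siControl in SK-Hep1 without a call. EDA2R, the receptor of ectodysplasin A2, rose by 0.67 in A375 batch 2 (9.29 to 10.4 TPM with siGCDH and 5.11 to 6.37 TPM with siControl) and by 0.99 in SK-Hep1 (15.4 to 18.01 TPM with siGCDH and 7.05 to 9.41 TPM with siControl). The decoy receptor TNFRSF10C passed in none of the 4 comparisons, with differences between -0.15 and 0.34.

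Genes called higher were then compared across comparisons, which do not share control libraries. A375 batch 2 and SK-Hep1 shared 16 genes, 76.2% of the 21 called in A375 batch 2 and 64.0% of the 25 in SK-Hep1. A375 batch 2 and the libraries labelled SKBR3 shared 14, 66.7% of 21 and 70.0% of 20. SK-Hep1 and the libraries labelled SKBR3 shared 18, 72.0% of 25 and 90.0% of 20. Over all genes called higher, the shared ones were 40.8% of those in A375 batch 2 and 20.4% of those in SK-Hep1, 42.4% and 14.8% for A375 batch 2 and the libraries labelled SKBR3, and 62.9% and 43.8% for SK-Hep1 and those libraries. Of the p53 target genes tested, 65.6% were called higher in A375 batch 2, 73.5% in SK-Hep1 and 62.5% in the libraries labelled SKBR3, which lies close to several of the shared percentages, so nothing is read from the overlaps. In all 3 whole-transcript comparisons 12 of 30 genes tested in each rose, where 5.97% of 12258 genes did: BTG2, CDKN1A, DDB2, FDXR, MDM2, PHLDA3, PPM1D, RPS27L, RRM2B, TP53INP1, TRIAP1 and ZMAT3. With scaling 7 of these were called in all 3 (3.16% of all genes), and BTG2, FDXR, MDM2, PPM1D and RPS27L lost the call in the libraries labelled SKBR3. Of the 5 called in A375 batch 1, 4 were also called in batch 2 (CDKN1A, GADD45A, GADD45B and RPS27L). The genes that fell, CCNG2 in A375 batch 2, PLK2 in SK-Hep1 and CCNG1 and TP53I11 in the libraries labelled SKBR3, fell in 1 comparison each.

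Whether the response differed between lines was tested directly, as the difference between knockdown effects over 12 libraries. Between A375 batch 2 and SK-Hep1, 9 of 33 genes had a higher response in A375 and 10 a lower one, where 17.4% and 28.8% of all 15548 genes did so. Of the 9 genes on the A375 side 7 were among the 9 arrest genes, of which PLK3 and SFN were not called, and PLK2 was there with a fall in SK-Hep1 and no call in A375. SERTAD1 differed by 1.14 (SE 0.16, adjusted p = 0.000174), GADD45A by 0.93 (adjusted p = 1.44e-07) and GADD45B by 0.81 (adjusted p = 7.58e-05), and BTG1, BTG2, PLK2, PHLDA3, CDIP1 and CDKN1A were the other 6. On the SK-Hep1 side ZMAT3 differed by -1.12 (adjusted p = 2.86e-05), TP53INP1 by -1.04 (adjusted p = 0.000175) and POLH by -0.89 (adjusted p = 0.00735). CCNG2, DDB2, AEN, TRIAP1, TIGAR, MDM2 and TP53I3 were the other 7 there. The calls of MDM2 (-0.32), TIGAR (-0.39) and TP53I3 (-0.28) were lost with scaling. It gave 10 higher and 7 lower, where 21.8% and 22.8% of all genes were. For CDKN1A the difference was small beside either rise (0.25 (SE 0.051)).

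**Figure D4:**
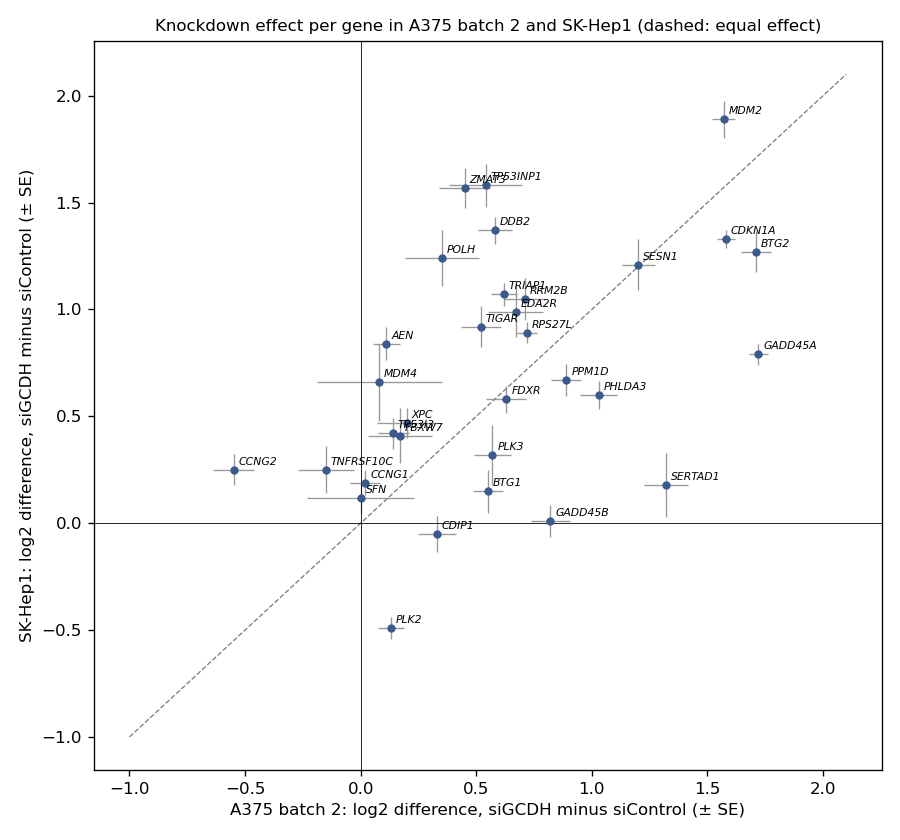
Log2 difference (± SE) after GCDH knockdown in A375 batch 2 against that in SK-Hep1 for each p53 target gene tested in both. Every gene is named, and the dashed line shows an equal effect. SERTAD1, GADD45A and GADD45B lie on the A375 side and ZMAT3, TP53INP1 and POLH on the SK-Hep1 side, while most others are positive in both.

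Set against the libraries labelled SKBR3, A375 batch 2 had a higher response for 11 of 33 genes and a lower one for 5, where 14.5% and 36.8% of all 16820 genes did so. GADD45A differed by 1.70 (SE 0.078), BTG2 by 1.33 (SE 0.096) and SESN1 by 1.24 (SE 0.099). MDM2 differed by 1.22 (SE 0.11) and SERTAD1 by 1.02 (SE 0.14). On the other side DDB2, TP53I3, CCNG2 and TNFRSF10C were called, the last lost in 13 alternatives. The fifth, SPATA18, with a value of -1.41, is listed at 0 in A375, so its value restates the rise in the libraries labelled SKBR3 and shows no lower response. SK-Hep1 had a higher response than the libraries labelled SKBR3 for 18 of 34 genes and a lower one for 3, where 14.5% and 25% of all 16480 genes did so. MDM2 differed by 1.54 (SE 0.14), SESN1 by 1.25 (SE 0.14), ZMAT3 by 0.93 (SE 0.14), BTG2 by 0.88 (SE 0.11) and CCNG1 by 0.84 (SE 0.09). PHLDA3 (-0.89 (SE 0.19)), TP53I3 and CDIP1 responded less in SK-Hep1. Each of these comparisons shares libraries with another, so the counts are not independent of each other. With median scaling they came to 15 and 4 for A375 batch 2 (22.9% and 24.1% of all genes). For SK-Hep1 they came to 20 and 2 (20.8% and 19.4%). Over all genes the share of called differences that were higher moved with scaling as well. It was 48.9% with scaling and 37.6% without for A375 batch 2 minus SK-Hep1, 48.7% and 28.3% for A375 batch 2 minus the libraries labelled SKBR3, and 51.7% and 36.7% for SK-Hep1 minus those libraries.

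The A375 batches, made with different kits, differed for 2 of 31 genes, both with a lower response in batch 1, where 0.447% of all 14764 genes were called higher and 4.78% lower. MDM2 differed by -1.08 (SE 0.15, adjusted p = 0.00358) and CDKN1A by -0.52 (SE 0.11, adjusted p = 0.0251). The MDM2 call held with scaling, and that of CDKN1A was lost. Over all genes the share of called differences that were higher was 49.7% with scaling and 8.55% without. A kit and a batch cannot be told apart here. In both batches every siGCDH library lay above every siControl library for 13 of 30 genes tested in both, where 4.8% of 11919 genes did so. They were CDKN1A, MDM2, PPM1D, GADD45A, GADD45B, BTG1, BTG2, SERTAD1, RRM2B, TIGAR, RPS27L, PHLDA3 and TRIAP1.

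With both directions counted together, levels in control cells differed between lines for the 34 genes about as often as for all genes. Against the libraries labelled SKBR3, however, they were more often higher and less often lower than all genes. Their median log2 difference there was 0.48 for A375 batch 2, against -0.10 over all genes, and 0.48 for SK-Hep1, against -0.34. Between A375 batch 2 and SK-Hep1 controls, 15 of 33 were higher in A375 and 9 lower, where 45.7% and 29.3% of all 15203 genes were. SFN had 1.31, 0.79 and 1.52 TPM in A375 controls and 65.4, 68.1 and 59.3 TPM in SK-Hep1 controls (log2 difference -4.90), and PLK2 91.3, 96.7 and 88.8 TPM and 770.5, 783 and 821 TPM (-3.09). BTG1 was higher in A375, with 97.1, 108 and 106 TPM against 30.1, 25.9 and 27.7 TPM in SK-Hep1 (1.86), and so was BTG2, by 1.51, while GADD45B was lower, by -1.49. Between controls of A375 batch 2 and of the libraries labelled SKBR3, 19 of 33 were higher in A375 and 8 lower, where 34.5% and 40.5% of all 15870 genes were. PLK2 differed by 4.52, PHLDA3 by 3.56, CDKN1A by 3.01 and TP53I3 by 2.73. TP53I11 went the other way, by -4.14. SK-Hep1 over the libraries labelled SKBR3 gave 19 of 34 higher and 10 lower, where 28.9% and 50.5% of all 15477 genes were. PLK2 differed by 7.61, SFN by 5.79, PHLDA3 by 3.15, RPS27L by 2.97 and TP53I11 by -3.88. Some tested genes reached the filter on low values only through the line where they were high. Against the controls labelled SKBR3 these were EDA2R (0.593 TPM there) and, for SK-Hep1, SFN (0.18 TPM there). SPATA18 was tested only through the controls labelled SKBR3 (0.733 TPM in SK-Hep1 and 0 in A375 batch 2). Nothing is read from the calls of these genes.

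**Figure D5:**
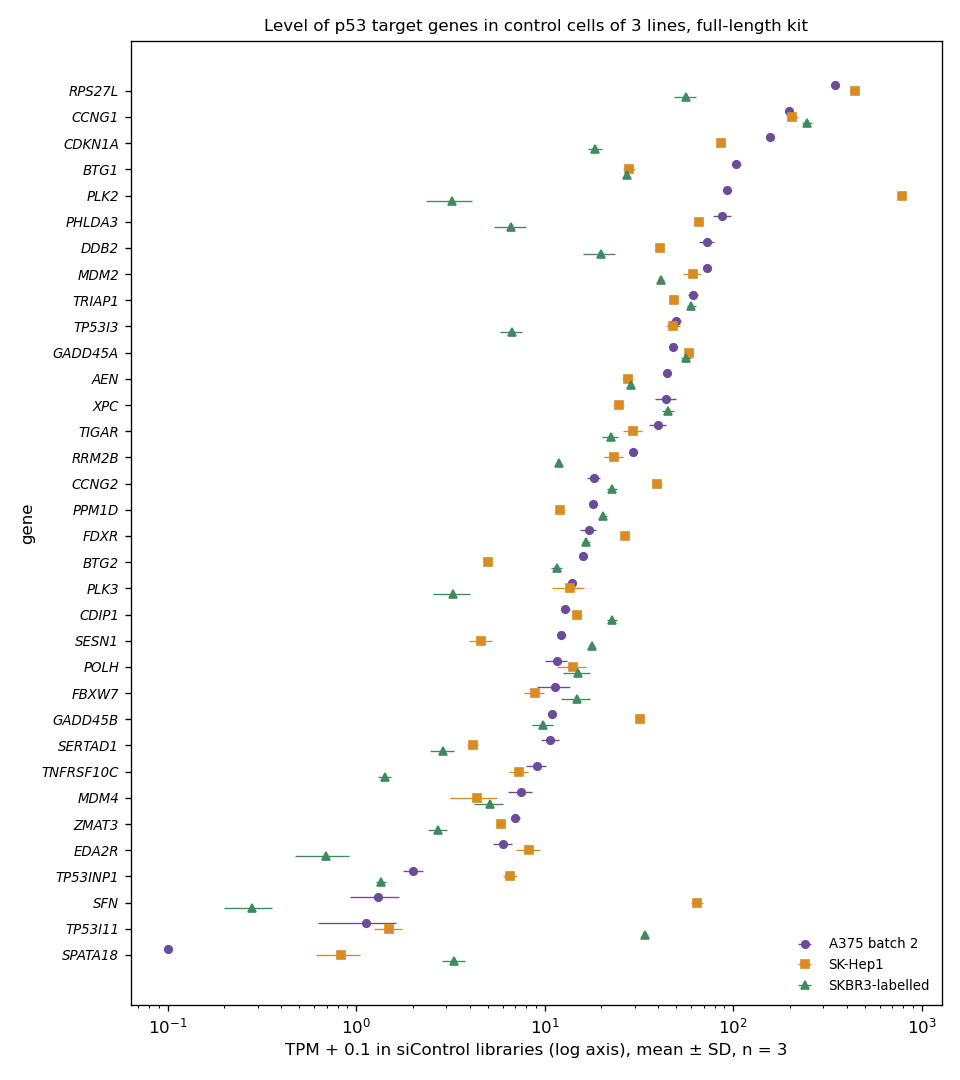
TPM of the p53 target genes in siControl cells of A375 batch 2, SK-Hep1 and the libraries labelled SKBR3. Points are group means with a small offset on a log axis, and bars are SD (n = 3). CDKN1A, RPS27L, PHLDA3 and TP53I3 are lowest in the libraries labelled SKBR3, SFN is high in SK-Hep1 and TP53I11 is high in the libraries labelled SKBR3.

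The CDKN1A levels in control cells were ordered A375 batch 2 (151 to 159 TPM), SK-Hep1 (84.6 to 88.1 TPM) and the libraries labelled SKBR3 (16.6 to 19.6 TPM), and each neighbour in that order differed. MDM2 followed the same order, but its A375 and SK-Hep1 controls differed by only 0.25, a call lost with scaling. GADD45A levels lay closer together, with 47.2 to 47.9 TPM in A375 batch 2, 56.7 to 58.9 TPM in SK-Hep1 and 53.3 to 59.8 TPM in the libraries labelled SKBR3. The last 2 of these overlapped.

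Of 21 genes known to act on p53 or related to it, 4 rose and 3 fell of 20 tested in A375 batch 2, 0 and 1 of 19 in batch 1, 4 and 6 of 19 in SK-Hep1, and 7 and 5 of 20 in the libraries labelled SKBR3. In the same order, 17.9% and 15.7%, 1.18% and 6.73%, 37.3% and 18.2%, and 47.3% and 14.7% of all genes were called higher and lower. Scaling turned the counts in the libraries labelled SKBR3 to 3 higher and 11 lower (29.4% and 25.6% of all genes). It gave 2 and 7 in SK-Hep1 (28.3% and 23.1%), 3 and 3 in A375 batch 2 (17.7% and 16.2%) and 0 and 0 in batch 1 (1.59% and 2.28%). KAT5, an acetyltransferase of p53, rose by 0.42 in A375 batch 2, and the kinase CHEK2 fell with -0.65 and the deubiquitinase USP10 with -0.38. In SK-Hep1 the deacetylase SIRT1 (-0.54) and KAT5 (-0.54) fell and the ubiquitin ligase COP1 (0.37) rose. In the libraries labelled SKBR3 SIRT1 (-0.82) and RPL5 (-0.35), a ribosomal protein that binds MDM2, fell, and the p53 relative TP73 rose (1.16). RPL11, which also binds MDM2, fell in batch 1 (-0.40), a call lost with scaling. The CDKN2A transcript, whose locus encodes the MDM2 inhibitor ARF, was listed at 0 in SK-Hep1 and lay between 359 and 405 TPM in the libraries labelled SKBR3.

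Other p53 targets outside the 34 genes were counted for comparison. Of all genes, 17.9% were called higher and 15.7% lower in A375 batch 2, and 1.18% and 6.73% in batch 1. SK-Hep1 had 37.3% and 18.2%, and the libraries labelled SKBR3 47.3% and 14.7%, or 29.4% and 25.6% with scaling. Of 12 apoptotic targets, 7 of 11 tested rose and none fell in A375 batch 2, 1 of 11 rose in batch 1, 6 rose and 1 fell of 11 in SK-Hep1, and 6 rose and 2 fell of 10 in the libraries labelled SKBR3. BBC3, the death effector PUMA, had 27.5, 28.9 and 26.9 TPM in siGCDH libraries, against 9.69, 10.8 and 8.43 TPM in siControl libraries in A375 batch 2 (log2 difference 1.44, SE 0.1, adjusted p = 6.89e-05), and BAX and FAS rose by 0.59 and 0.85. BBC3 also rose in batch 1 (0.89) and SK-Hep1 (0.88), where BAX (1.18) and TNFRSF10B (1.08) rose too. In the libraries labelled SKBR3 PIDD1 (1.89) and TNFRSF10B (0.96) rose and PMAIP1 (-0.88) fell. With scaling the counts in those libraries came to 4 and 2. Of 14 further targets, 7 of 11 tested rose in A375 batch 2, 2 of 10 in batch 1, 10 of 13 in SK-Hep1, where 2 fell, and 7 of 12 in the libraries labelled SKBR3, where scaling gave 4 higher and 3 lower. SESN2, a sestrin also induced by the ATF4 stress pathway, rose by 1.64 in A375 batch 2, 1.22 in batch 1 and 1.76 in SK-Hep1. GDF15, a secreted stress factor, had 334, 328 and 307 TPM in siGCDH libraries, against 56.9, 59.3 and 57.9 TPM in siControl libraries in SK-Hep1 (log2 difference 2.46, SE 0.049, adjusted p = 1.29e-07). In A375 batch 2 PCNA (0.37) and PRKAB1 (0.79) rose, in batch 1 ASCC3 (0.91), in SK-Hep1 TNFRSF10D (0.84), and in the libraries labelled SKBR3 CYFIP2 (1.23), APOBEC3C (0.58) and PCNA (0.30), which was not called with scaling.

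Cell cycle genes that p21 and the DREAM complex are known to repress moved in opposite directions in A375 batch 2 and SK-Hep1, in both of which CDKN1A rose. Of 20 such genes, 15 fell and 1 rose in A375 batch 2, with a median of -0.32 against 0.02 over all genes. In batch 1, 3 fell and none rose, with a median of -0.38 against -0.20, and with scaling 1 fell, RRM2. In SK-Hep1, 13 rose and 4 fell, with a median of 0.31 against 0.18, and 12 and 5 with scaling. In the libraries labelled SKBR3, 11 rose and 5 fell, with a median of 0.20 against 0.29, and scaling gave 7 and 8. Of all genes, 17.9% rose and 15.7% fell in A375 batch 2. In batch 1 1.18% rose and 6.73% fell, and 2.28% fell with scaling. SK-Hep1 had 37.3% and 18.2%, or 28.3% and 23.1% with scaling. The libraries labelled SKBR3 had 47.3% and 14.7%, or 29.4% and 25.6% with scaling. The difference between the A375 batch 2 and SK-Hep1 responses was called lower for 14 of the 20 and higher for 2. Over all genes these shares were 28.8% and 17.4%. With scaling the counts came to 14 and 3 (22.8% and 21.8% of all genes). BIRC5, the survivin gene, had 35.5, 36.8 and 39.1 TPM in siGCDH libraries, against 59.3, 60.8 and 57.1 TPM in siControl libraries in A375 batch 2 (log2 difference -0.66, SE 0.059, adjusted p = 0.000227), and 111, 116 and 119 TPM with siGCDH and 68.7, 71.5 and 64.9 TPM with siControl in SK-Hep1 (log2 difference 0.74, SE 0.056, adjusted p = 2.92e-05). TOP2A, the mitotic topoisomerase, had 199, 223 and 238 TPM with siGCDH and 116, 112 and 117 TPM with siControl in SK-Hep1 (log2 difference 0.92, SE 0.068, adjusted p = 2.52e-05). MCM3, a subunit of the replicative helicase, had 52.2, 50.8 and 54.4 TPM with siGCDH and 89.2, 93.6 and 91.7 TPM with siControl in A375 batch 2 (log2 difference -0.79, SE 0.05, adjusted p = 4.85e-05). CCNB1 fell in A375 batch 2 (-0.54), CCNB2 rose in SK-Hep1 (0.62), and RRM2 (-1.31), CDC20 (-0.82) and PLK1 (-0.83) fell in batch 1, the last 2 without a call after scaling. In the libraries labelled SKBR3 TOP2A (0.72), MKI67 (0.98) and CENPF (0.93) rose.

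The sequence of the siRNA is not given in the sources used here. The 7-base stretch ACTGAGA, taken from earlier work on these data that looked for matches of short stretches in lowered genes, occurs in the longest annotated 3′ UTR (GENCODE 29) of 4 of the 34 genes, 11.8%, against 15.8% of 12960 genes. The 4 are MDM2, GADD45B, RPS27L and RRM2B. All were called higher in A375 batch 2, as were 21 of the 32 tested p53 target genes and 17.9% of all genes. In SK-Hep1 and in the libraries labelled SKBR3 all but GADD45B were, beside 37.3% and 47.3% of all genes. Nothing is read from these calls, and the part of the stretch in their levels was not tested.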

How the data were processed

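RNA was sequenced in 24 libraries (8 groups of 3). Per the labels' protocols, RNA was extracted with RNeasy columns 48 hours after transfection and read single-end on an Illumina NextSeq. Batch 1 of A375 used the Lexogen QuantSeq 3′ kit and the other libraries NEBNext poly(A) selection with an Ultra II Directional kit. The authors deposited 1 table of TPM values. The submitters' processing notes name RSEM 1.3.1, STAR 2.7.0d, cutadapt 2.3 and, as the build, hg38. Which annotation and strand setting were used is not given in the sources used here, so overlapping antisense genes cannot be told apart. RSEM divides reads among similar copies by an estimate. The depth cannot be read from TPM, so no interval for counting error is printed.

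Values were transformed to log2(TPM + 1), which understates the change of low genes. Only genes that averaged 1 TPM or more over the fitted libraries were tested, with limma 3.58.1 (lmFit, eBayes with trend, two-sided) in R 4.3.3. P-values were Benjamini-Hochberg adjusted over all genes of a fit and called under 0.05. There were 11 comparisons, 4 of knockdown and 3 of control cells on 6 libraries each, and 4 differences between knockdown effects on 12. Exact permutation of 3 against 3 libraries cannot go below 0.1 and was not used. The fits were tested on simulated data. Positions come from GENCODE 29 (hg38), matched by gene identifier, and promoter windows from RefSeq (GRCh38.p14). Sequence searches and figures used Python 3.11.15 with pandas 2.3.3, numpy 2.4.6 and matplotlib 3.10.9.

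All 34 genes are accounted for. Values per library are given for CDKN1A, MDM2 and GADD45A, for up to 10 called genes with the smallest adjusted p per knockdown comparison, for genes called in opposite directions, and for genes named in differences (up to 6 by size) and control cells (5 per pair). Up to 3 called genes of each other list are named. A gene of the list of regulators is not reported here. The genes, lists and this rule were chosen with earlier results of these data known. Alternatives were pseudocounts of 0.1 and 5, no filter, a filter at 5 TPM, scaling to a common median, no trend, the replicate number as a block, batch 1 without the chromosome 21 rows, and leaving out each library in turn.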

Additional observations from a re-analysis of the deposited data

Results flagged for a closer look

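The knockdown effects of the genes below differed between lines or batches by a test of the difference itself (limma, adjusted p under 0.05 over all genes). Values are differences on the log2(TPM + 1) scale. No explanation was tested.

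A higher response in A375 batch 2 than in SK-Hep1 was seen for SERTAD1 (1.14), GADD45A (0.93), GADD45B (0.81) and PLK2 (0.63). BTG2 (0.45), PHLDA3 (0.43), BTG1 (0.40), CDIP1 (0.38) and CDKN1A (0.25) differed less in the same direction. For PLK2 this difference comes with a fall in SK-Hep1 (-0.49) beside 0.13 in A375 batch 2, which was not called. A lower response in A375 batch 2 was seen for ZMAT3 (-1.12), TP53INP1 (-1.04), POLH (-0.89), CCNG2 (-0.81), DDB2 (-0.79) and AEN (-0.73). TRIAP1 (-0.45), TIGAR (-0.39), MDM2 (-0.32) and TP53I3 (-0.28) followed. Calls were lost in 12 alternatives for TIGAR, 10 each for MDM2 and TP53I3, and 3 for BTG1.

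Set against the libraries labelled SKBR3, A375 batch 2 had a higher response of GADD45A (1.70), BTG2 (1.33), SESN1 (1.24), MDM2 (1.22), SERTAD1 (1.02) and CDKN1A (0.90). GADD45B (0.76), CCNG1 (0.66), PPM1D (0.62), BTG1 (0.54) and FDXR (0.35) differed in the same direction, CCNG1 with a fall in the libraries labelled SKBR3. The response was lower in A375 batch 2 for TP53I3 (-0.91), DDB2 (-0.78), CCNG2 (-0.52) and TNFRSF10C (-0.49), the last of which lost its call in 13 alternatives. SPATA18 (-1.41) is listed at 0 in A375, so its value only restates the rise in the libraries labelled SKBR3.

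Set against the same libraries, SK-Hep1 had a higher response of MDM2 (1.54), SESN1 (1.25), ZMAT3 (0.93), BTG2 (0.88), CCNG1 (0.84) and AEN (0.84). TP53INP1 (0.81), GADD45A (0.77), TIGAR (0.72), CDKN1A (0.65), TP53I11 (0.58) and EDA2R (0.52) came next. RRM2B (0.49), PPM1D (0.40), RPS27L (0.39), TRIAP1 (0.35), FDXR (0.31) and CCNG2 (0.29) had the smallest of these differences. The call was lost in 11 alternatives for RPS27L, 10 for EDA2R, 5 for CCNG2 and 4 for RRM2B. EDA2R averaged only 0.593 TPM in the siControl libraries labelled SKBR3, and its difference came to as little as 0.13 in an alternative. TP53I11 averaged 1.4 TPM in SK-Hep1 controls. Both differences therefore rest in part on values near the floor, and that of EDA2R largely restates its rise in SK-Hep1. PHLDA3 (-0.89), TP53I3 (-0.63) and CDIP1 (-0.39) had a lower response in SK-Hep1, CDIP1 not with scaling.

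Between the A375 batches, MDM2 (-1.08) and CDKN1A (-0.52) had a lower response in batch 1, the batch made with the 3′ kit, and CDKN1A lost the call in 10 alternatives. MDM2 also had more TPM in batch 1 controls (167 to 237) than in batch 2 controls (69.9 to 74.0), values of different kits that were not tested against each other.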

How the results depend on the processing

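Across the 11 comparisons, 5199 of 5475 results of single genes under alternatives kept their side of the threshold, 196 lost the call, 79 gained one and 1 reversed. A reversal was counted only where the main or the alternative setting gave a call. Results without a call in either could change direction and still count among the 5199. The reversal was GADD45A in the libraries labelled SKBR3, at -0.21 with median scaling and 0.02 without. Scaling also gave 11 genes higher and 6 lower in those libraries, against 20 and 2. The calls that A375 batch 1 made were the least stable. Its 5 genes called higher came to 3 with no filter, 9 with a filter at 5 TPM, 9 with median scaling, 0 with no trend, 2 with the replicate block and 10 without the chromosome 21 rows, and to 3 without any 1 library. With no trend, limma left CDKN1A at an adjusted p of 0.0561. The 2 lower responses in batch 1 than in batch 2 came to 6 with a pseudocount of 5 and to 1 with median scaling, with no trend, with the replicate block or without the chromosome 21 rows. Without single libraries they ran from 1 to 4, and the higher ones from 0 to 1. The median of that difference was -0.21, against 0.01 with scaling and 0.09 without the chromosome 21 rows. A pseudocount of 5 gave 5 lower responses in SK-Hep1 than in the libraries labelled SKBR3, against 3. A pseudocount of 0.1 turned the median difference between A375 batch 2 and those libraries to -0.01, against 0.11. The cause of these changes was not tested.

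Without single libraries, genes called higher ran from 18 to 22 in A375 batch 2, 22 to 25 in SK-Hep1 and 18 to 19 in the libraries labelled SKBR3, with 1, 1 and 2 called lower. Differences ran from 8 to 10 higher and 7 to 12 lower for A375 batch 2 minus SK-Hep1, 11 to 12 and 4 to 6 for A375 batch 2 minus the libraries labelled SKBR3, and 15 to 18 and 3 for SK-Hep1 minus those. In control cells they ran from 14 to 16 and 8 to 9, 17 to 19 and 7 to 9, and stayed at 19 and 10. The replicate numbers did not pair the samples, since correlations of same-numbered deviations ran from -0.0275 to 0.0567. With the replicate block, 20 genes were higher in A375 batch 2, 24 in SK-Hep1 and 19 in the libraries labelled SKBR3, and apart from batch 1 no count moved by over 1.5 times. TPM without read totals limit what can be said of genes near 1 TPM, such as TP53INP1, SPATA18 and SFN.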
